A study of Canis lupus familiaris with 15 samples.

Results

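D17 is a cell line derived from a canine osteosarcoma, a bone tumor that spreads mainly to the lung, and the comparison described here is that of extravasated with parental D17 cells. Its members are the genes in the authors' table of differential expression for D17, which holds 4412 of the 7698 genes found in any of the 3 such tables of the series. It rests on 6 of the 15 libraries, 3 of each kind, and the remaining libraries belong to the canine osteosarcoma lines HMPOS and POS. To obtain extravasated D17 cells, fluorescent tumor cells were injected into the bloodstream of Tg(fli1a:EGFP) zebrafish embryos, in which green fluorescent protein marks the vessels. Parts of embryos that held clusters outside the vessels were cut out within a day, dissociated and plated, and the outgrowing sublines were expanded before RNA was taken. Fish cells carried over with them were not analysed here. Parental D17 cells were the starting line grown in vitro, with no passage through fish. Passage, isolation, outgrowth and extravasation therefore differed together between the groups and cannot be told apart. The labels and the article do not say whether single clusters gave rise to the sublines, and the article counts the 3 extravasated samples as biological replicates.

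Each gene has 1 value per group in FPKM (fragments scaled by the length of the transcript and by how many fragments were mapped), which the authors made from the 3 libraries of that group together. How far libraries of 1 group differ and how deeply they were sequenced is therefore not known here, no SD can be given, and no test was run. The table holds only genes that the authors' own test marked as significant, so each difference passed that test, and the level of a gene that is not listed is unknown. All ratios are log2 ratios of extravasated over parental FPKM with no pseudocount, and values are given with the extravasated group first. The table calls the groups meta and norm. Norm was read as parental because POS, which has parental libraries only, also carries that name. The labels do not define these names, the table's own log2 column has norm over meta and so the opposite sign to the ratios given here, and the article's wording of direction for VCAN, the matrix genes and the interferon genes follows that other sign. The article also counts more downregulated than upregulated genes in D17, whereas more of the listed genes are higher than lower under the reading used here. Which sign holds could not be settled from the files, and with the opposite reading every ratio below would change sign, so that higher would read lower throughout. Genes were named by a rule on ratio and level, and those named beyond it to fill out a family or pathway were chosen after their values were seen. In RNA from bulk cultures, fewer cells expressing a gene and less RNA per cell cannot be told apart.

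As background, osteosarcoma cells are malignant relatives of the osteoblast and typically make type I collagen, SPARC and osteopontin. A cell that divides expresses DNA replication and mitosis genes in successive waves, and these genes are silenced together when it leaves the cycle. Interferons, the cytokines of antiviral defence, switch on a shared set of effector and antigen presentation genes in most cell types through STAT and IRF transcription factors. Lysosomes, secreted proteases and crosslinking enzymes remodel the matrix that surrounds mesenchymal cells.

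Of the 4404 genes with a value above 0 in both groups, 2385 were higher in extravasated cells, which is 54.2% of them, and 2019 were lower, which is 45.8%. A ratio of at least 2-fold was reached by 803 genes in the higher direction, 18.2% of the total, and by 372 genes in the lower direction, 8.45%. The differences were thus larger upward than downward. At 4-fold the counts were 216 higher and 24 lower, and at 8-fold they were 72 higher and 4 lower. The median log2 ratio was 0.75 among the higher genes and -0.62 among the lower ones, and over all 4404 genes it was 0.39. Since only significant genes are listed, no ratio lay between -0.286 and 0.284. The median is thus that of a selected set and does not measure a shift of all expressed genes. Centring all ratios on it turned the counts at 2-fold around, to 471 higher and 1013 lower. Counts relative to the median are given beside most of the lists below, as a description only. Each list is to be read beside the shares over all 4404 genes. These are 54.2% higher, 18.2% at least 2-fold higher and 8.45% at least 2-fold lower. The direction also moved with the level of expression, as the plot of both groups against each other shows. Of the 258 genes with a mean of both groups below 1 FPKM, 86.0% were higher in extravasated cells. Among the 2220 genes from 10 to 100 FPKM the share was 45.5%, and among the 51 genes above 1000 FPKM it was 78.4%. At least 2-fold higher were 72.9% of the genes below 1 FPKM, 24.1% from 1 to 10 FPKM and 9.95% from 10 to 100 FPKM. Members of the lists at low levels are to be read beside these shares.

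**Figure D1:**
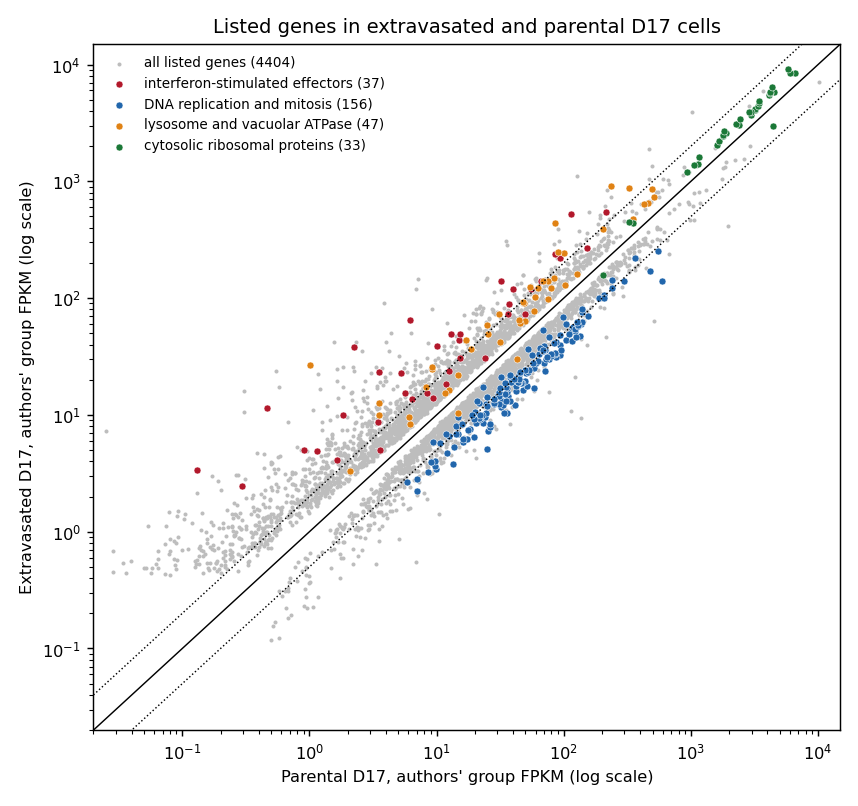
Group FPKM of extravasated D17 (vertical axis) against parental D17 (horizontal axis), both on log scales, for the 4404 listed genes with a value above 0 in both groups. The solid line marks equal values and the dotted lines mark 2-fold differences, and the band along the solid line is empty since the table lists significant genes only. Replication and mitosis genes (blue) lie below the line throughout, interferon-stimulated effectors (red) lie above it, and ribosomal protein genes (green) sit at the top of the range just above it, apart from RPS2 and RPL22L1.

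Genes of the cell cycle were lower in extravasated cells throughout. The 156 listed genes of DNA replication and mitosis were all below their parental level, 115 of them at least 2-fold, against 8.45% of all listed genes. Their log2 ratios ran from -2.26 to -0.38 with a median of -1.17. All 156 also lay below the median of all genes after centring, which was fixed in advance, since centring lowers every ratio.

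Of 74 replication and repair synthesis genes searched, 62 were listed, 43 of them at least 2-fold lower, with a median log2 ratio of -1.19. The summed FPKM of the 62 genes was 2138 in extravasated and 4747 in parental cells, a ratio of 0.450. Supply of nucleotides was led by RRM2, the regulated subunit of ribonucleotide reductase (chr17:7105810-7122747 in CanFam3.1), which stood at 141 against 592 FPKM (log2 -2.07). TYMS, the thymidylate synthase, measured 54.1 against 115 FPKM (log2 -1.09). At the origins of replication, all 8 listed MCM genes, most of which encode subunits of the replicative helicase or its loading partner, were lower, 6 of them at least 2-fold, with a median log2 ratio of -1.43. MCM7 was at 23.7 against 71.6 FPKM (log2 -1.59). MCM6 came to 100.3 against 189.8 FPKM (log2 -0.92). CDC45, which activates that helicase, stood at 12.2 against 41.3 FPKM (log2 -1.76). CLSPN, the adaptor of the replication checkpoint, measured 7.21 against 25.6 FPKM (log2 -1.83). EXO1, an exonuclease of mismatch repair, was at 3.81 against 13.4 FPKM (log2 -1.81). PCNA, the sliding clamp of DNA polymerase, had the highest parental level of the replication list after RRM2 and came to 252 against 555 FPKM (log2 -1.14). UHRF1, which guides maintenance DNA methylation to replicated DNA, showed the lowest ratio of the list at 5.16 against 24.7 FPKM (log2 -2.26), but its annotated span (chr20:54858658-55077477) overlaps another listed gene, so the authors' counting could have divided fragments between them.

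The mitosis, kinetochore and spindle list had 94 of 108 genes listed, 72 of them at least 2-fold lower, with a median log2 ratio of -1.16. Its summed FPKM was 2759 in extravasated and 6089 in parental cells. KIF15, a kinesin of the spindle, stood at 10.4 against 35.9 FPKM (log2 -1.79). CEP55, a scaffold of the final separation of daughter cells, measured 10.3 against 34.2 FPKM (log2 -1.73). SMC2, a core subunit of condensin, was at 8.42 against 26.2 FPKM (log2 -1.64). CDC25A, the phosphatase that activates cyclin-dependent kinases, came to 6.51 against 19.5 FPKM (log2 -1.58). UBE2C, the ubiquitin-conjugating enzyme of the anaphase-promoting complex, had the highest level of the list in parental cells and stood at 169.9 against 473 FPKM (log2 -1.48). TOP2A, the topoisomerase that untangles chromosomes, measured 42.9 against 116 FPKM (log2 -1.44). MIS18A, which prepares centromeres for new CENPA, was among the 15 largest decreases with at least 1 FPKM in the higher group at 8.29 against 37.7 FPKM (log2 -2.19), and CENPA, the centromeric histone H3 variant, was at 57.6 against 131 FPKM (log2 -1.18). At the other end of the list KIF2A differed least, at 53 against 69.1 FPKM (log2 -0.38).

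Genes of the p53 response, of cycle inhibition and of apoptosis, taken as 1 list, were split. Of 29 listed p53 targets, cyclin-dependent kinase inhibitors and apoptosis genes, 19 were higher and 10 lower, or 17 and 12 relative to the median. CDKN1A, the kinase inhibitor p21, came to 45.2 against 22.2 FPKM (log2 1.03). PLK2, a polo-like kinase induced by p53, stood at 26.5 against 7.46 FPKM (log2 1.83). CCNG2, a cyclin associated with arrested cells, measured 38.4 against 14.3 FPKM (log2 1.43). CCNG1 was by far the most abundant member, at 1209 against 966 FPKM (log2 0.32), a difference below the median of all genes. The inflammatory caspases CASP4 and CASP12 had the largest ratios of the list, CASP4 at 4.69 against 0.387 FPKM (log2 3.60) and CASP12 at 4.48 against 0.582 FPKM (log2 2.94), whereas TIGAR, a p53 target that dampens glycolysis, was lower at 54.1 against 104 FPKM (log2 -0.94).

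Chromatin genes leaned lower, with 30 of 48 lower, 6 of them at least 2-fold, and 34 of 48 lower relative to the median. SUV39H1, a histone H3 lysine 9 methyltransferase, was at 8.92 against 22.3 FPKM (log2 -1.32). EZH2, the catalytic subunit of Polycomb repressive complex 2, came to 17.5 against 38.7 FPKM (log2 -1.14). HMGN1, a nucleosome-binding protein, was the most abundant member at 1307 against 1802 FPKM (log2 -0.46). In the other direction HDAC9, a class IIa histone deacetylase, stood at 1.80 against 0.722 FPKM (log2 1.32). SMARCA1, a chromatin remodeler, measured 4.48 against 1.89 FPKM (log2 1.24). Of 6 listed histone genes, CENPA and H2AFX were lower and 4 were higher. H2AFX, the variant phosphorylated at DNA breaks, was at 25.0 against 56.7 FPKM (log2 -1.18), whereas H2AFJ, a replication-independent variant of H2A, came to 43.2 against 16.4 FPKM (log2 1.40).

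**Figure D2:**
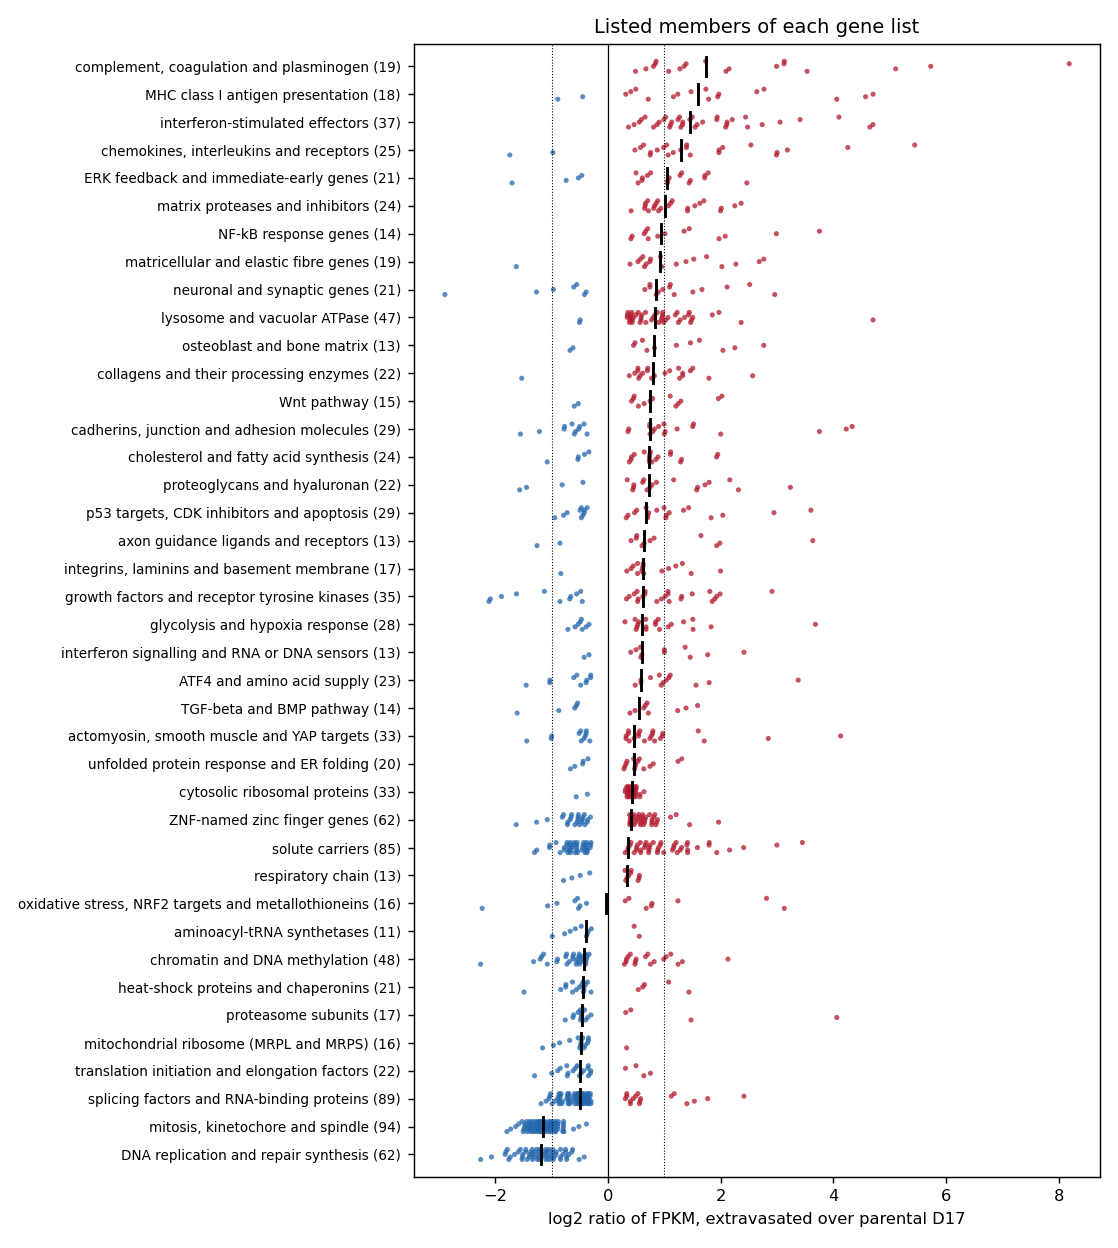
Log2 ratio of FPKM, extravasated over parental D17, for each listed member (points) of the gene lists, with the number of listed members in brackets. Black bars mark the median of each list, the solid line marks equal values, the dotted lines mark 2-fold differences, and red and blue mark higher and lower in extravasated cells. The replication and mitosis lists lie wholly below 0 and the complement, matrix protease and interferon-stimulated effector lists wholly above it.

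Genes of antiviral defence showed the opposite picture. Of 68 listed members of 3 lists together (effectors, signalling and antigen presentation), 64 were higher in extravasated cells under the same reading of the group names, 46 of them at least 2-fold, against 18.2% of all listed genes. Of 68 interferon-stimulated effectors searched, 37 were listed and all 37 were higher, 28 at least 2-fold and 36 also relative to the median, with a median log2 ratio of 1.45. Their summed FPKM was 3100 in extravasated and 1155 in parental cells, a ratio of 2.68.

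Among the effectors, MX1, a GTPase that blocks incoming viral nucleocapsids, was the most abundant and stood at 542 against 217 FPKM (log2 1.32). ISG15, a ubiquitin-like modifier (chr5:56230817-56237586), measured 528 against 115 FPKM (log2 2.20). UBA7, the enzyme that activates it, was at 22.8 against 5.29 FPKM (log2 2.11). Both groups thus expressed these genes, and extravasated cells held more of each. The largest ratios belonged to genes that were low in parental cells. TRIM22, an antiviral ubiquitin ligase, came to 3.39 against 0.130 FPKM (log2 4.70). XAF1, an interferon-induced antagonist of the apoptosis inhibitor XIAP, stood at 11.6 against 0.462 FPKM (log2 4.64). OASL, an enhancer of RIG-I signalling, measured 38.3 against 2.24 FPKM (log2 4.10). IFI6, a small membrane protein that protects against flaviviruses, was at 65.5 against 6.17 FPKM (log2 3.41). Whole families were higher together. The neighbours OAS1, OAS2 and OAS3, which make the messenger that activates RNase L, lie within 66.3 kb of chr26 and had log2 ratios of 1.09, 1.5 and 1.54. IFIT1, IFIT2 and IFIT3, which bind foreign RNA, lie within 71.0 kb of chr4 and had log2 ratios of 2.73, 2.44 and 1.33. MX1 and its neighbour MX2 on chr31 had log2 ratios of 1.32 and 1.93. Members of such families resemble each other, and fragments that match more than 1 of them may have been divided between them by the authors' program.

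Of 13 listed genes of interferon signalling and of RNA or DNA sensing, 11 were higher, 6 at least 2-fold, and the same number was higher relative to the median. DHX58 (LGP2), a helicase that binds viral RNA, came to 19.2 against 3.60 FPKM (log2 2.41). DDX58 (RIG-I), its relative that signals, stood at 64.0 against 18.8 FPKM (log2 1.77). TLR3, the endosomal receptor of double-stranded RNA, measured 17.8 against 8.92 FPKM (log2 1.00). TLR2, a receptor of bacterial lipoproteins, was at 11.2 against 4.09 FPKM (log2 1.46). The transcription factors of the response differed less. IRF9, the DNA-binding subunit of the complex that type I interferons activate, came to 33.4 against 22.3 FPKM (log2 0.58). IRF1 stood at 20.8 against 15.8 FPKM (log2 0.40). The exceptions were the signal transducers TRAF3, at 13.3 against 17.8 FPKM (log2 -0.42), and TBK1, at 31.0 against 39.1 FPKM (log2 -0.34), both lower.

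**Figure D3:**
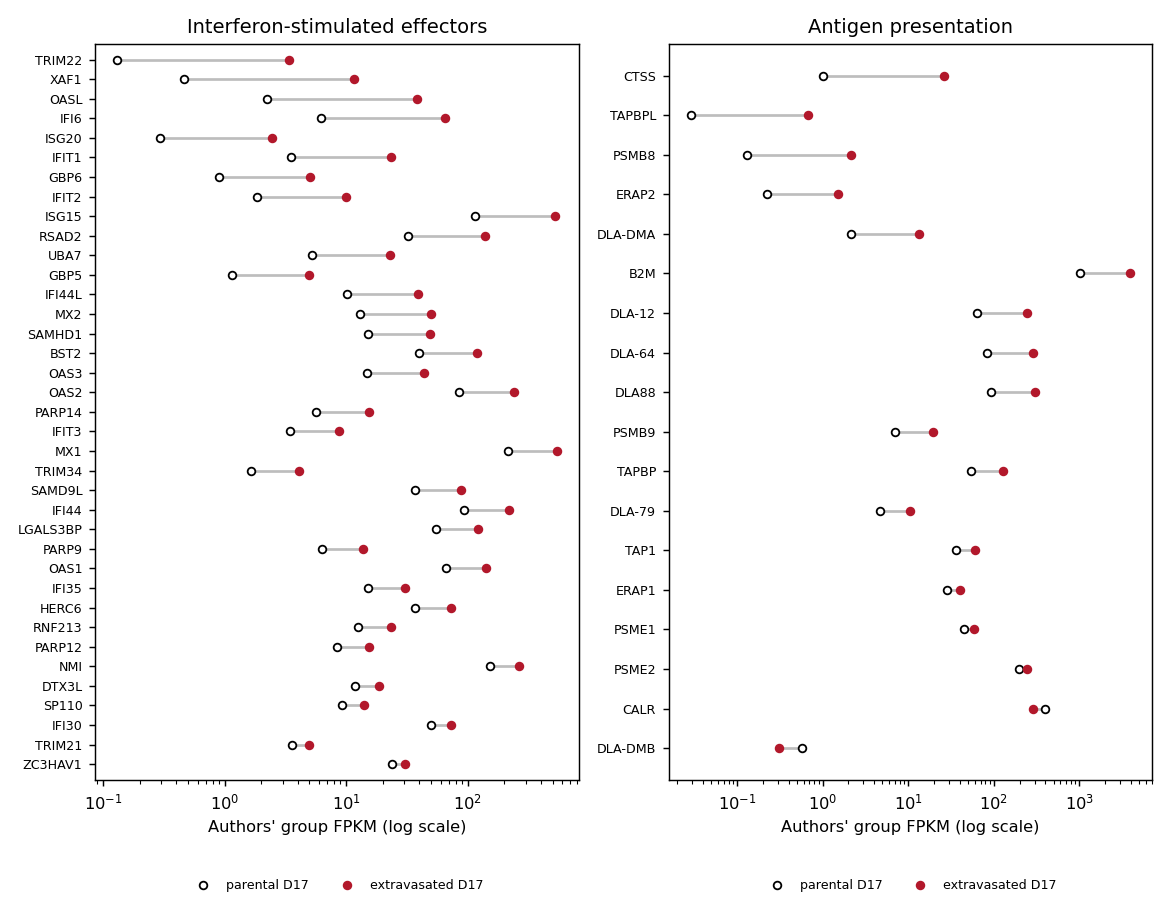
Group FPKM (log scale) in parental (open) and extravasated D17 cells (red) for the 37 listed interferon-stimulated effectors (left) and the 18 listed antigen presentation genes (right), ordered by ratio. All effectors are higher in extravasated cells, with TRIM22 and ISG20 at the low end of the range of levels and MX1 and ISG15 at the high end, and in the right panel CALR and DLA-DMB run the other way.

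Antigen presentation followed the effectors. Of 18 listed genes, 16 were higher, 12 at least 2-fold, with a median log2 ratio of 1.6, and 15 were higher relative to the median. B2M, the invariant light chain of MHC class I (chr30:11331777-11337987), measured 3959 against 1013 FPKM (log2 1.97), the second largest gain in FPKM of any listed gene. The 4 listed heavy chain genes of canine class I were all at least 2-fold higher, with a median log2 ratio of 1.76. DLA88 was at 306 against 91.7 FPKM (log2 1.74), DLA-64 at 288 against 83.6 FPKM (log2 1.78) and DLA-12 at 245 against 63.5 FPKM (log2 1.95). These genes are near-identical in sequence over long stretches, so how the fragments were divided among them is uncertain. Both listed immunoproteasome subunits, which replace the constitutive ones after interferon exposure, were higher as well. PSMB8 was at 2.16 against 0.129 FPKM (log2 4.06) and PSMB9 at 19.7 against 7.09 FPKM (log2 1.47), and with TAP1, the peptide transporter at 60.1 against 36.7 FPKM (log2 0.71), they lie within 22.0 kb of chr12. ERAP2, a peptide-trimming protease of the endoplasmic reticulum, stood at 1.52 against 0.224 FPKM (log2 2.77). CTSS, the lysosomal protease that processes the class II invariant chain, measured 26.5 against 1.02 FPKM (log2 4.70). The class II chaperone subunits parted, with DLA-DMA at 13.3 against 2.14 FPKM (log2 2.64) and DLA-DMB at 0.312 against 0.578 FPKM (log2 -0.89), the latter below 1 FPKM in both groups. CALR, a chaperone of folding class I molecules, was the other lower member at 290.5 against 397 FPKM (log2 -0.45).

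The remaining listed proteasome genes were lower, apart from PSME1 and PSME2. All 12 listed genes of the constitutive proteasome (PSMA, PSMB6, PSMC and PSMD) were below parental levels, none of them 2-fold, with a median log2 ratio of -0.48. PSMC1, an ATPase of the regulatory particle, was at 187 against 317 FPKM (log2 -0.76). PSMC2, its most abundant listed relative, came to 245 against 327 FPKM (log2 -0.42). PSME1 and PSME2, which form the interferon-inducible activator, were higher, at 59.0 against 44.6 FPKM (log2 0.40) and 243 against 196 FPKM (log2 0.31) respectively, although PSME2 fell below the median of all genes after centring.

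Secreted immune mediators leaned the same way. Of 78 chemokines, interleukins and their receptors searched, 25 were listed. Of these, 23 were higher, 16 at least 2-fold, with a median log2 ratio of 1.29, and 23 were higher relative to the median. IL33, a nuclear alarmin released from damaged cells (chr11:27219877-27258909), stood at 23.8 against 0.547 FPKM (log2 5.44). CXCL10, an interferon-induced attractant of T cells, measured 22.3 against 1.17 FPKM (log2 4.25). CCL5, which attracts T cells and monocytes, was at 50.1 against 6.26 FPKM (log2 3.00). CCL26 came to 2.81 against 0.310 FPKM (log2 3.18). CCL2, which draws in monocytes, stood at 3.47 against 0.887 FPKM (log2 1.97). IL34, a ligand of the macrophage colony-stimulating factor receptor, had the highest level of a ligand in extravasated cells at 85.8 against 21.9 FPKM (log2 1.97). IL6 measured 0.446 against 0.0562 FPKM (log2 2.99), below 1 FPKM in both groups. The 2 lower genes were LIFR and IL17RD. LIFR, the receptor subunit for leukemia inhibitory factor, measured 17.4 against 34.2 FPKM (log2 -0.98). IL17RD, an antagonist of fibroblast growth factor signalling, was at 1.06 against 3.55 FPKM (log2 -1.74). LIF itself came to 16.6 against 6.78 FPKM (log2 1.29), opposite to its receptor.

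Of 29 NF-kB response genes searched 14 were listed. All 14 were higher, 7 at least 2-fold, and all 14 remained above the median of all genes. Apart from RELB, those at least 2-fold higher had a mean of both groups below 10 FPKM. At such levels a 2-fold increase was common, with 24.1% of all listed genes from 1 to 10 FPKM and 72.9% below 1 FPKM. VCAM1, an adhesion molecule for leukocytes, stood at 1.40 against 0.104 FPKM (log2 3.75). CD40, a costimulatory receptor, measured 3.1 against 0.733 FPKM (log2 2.08). RELB and NFKB2, the pair that carries the noncanonical pathway, were at 26.1 against 10.2 FPKM (log2 1.35) and 35.7 against 22.4 FPKM (log2 0.67) respectively. NFKBIA, the inhibitor that NF-kB induces against itself, came to 28.2 against 17.2 FPKM (log2 0.71). The calgranulins S100A8 and S100A12, calcium-binding proteins best known from neutrophils, were among the 15 largest increases with at least 1 FPKM in the higher group. S100A12 stood at 42.0 against 1.56 FPKM (log2 4.75) and S100A8 at 41.9 against 2.32 FPKM (log2 4.17), and both lie with S100A6 within 53.2 kb of chr7. S100A6, which is widely expressed in mesenchymal cells, was far more abundant at 4387 against 2863 FPKM (log2 0.62).

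Complement and coagulation genes held the largest ratio of all. Of 72 genes searched 19 were listed. Each of the 19 was higher, 14 at least 2-fold, with a median log2 ratio of 1.73, and each was also higher relative to the median. C4BPA, a soluble inhibitor of the classical pathway (chr7:6240896-6268659), measured 7.34 against 0.0253 FPKM (log2 8.18), so that its ratio rests on a parental value close to 0. FGG, the gamma chain of fibrinogen (chr15:52261219-52270169), was at 16.1 against 0.305 FPKM (log2 5.73). C7, a component of the membrane attack complex, was at 10.6 against 0.308 FPKM (log2 5.10). C6, of the same complex and its neighbour within 244.7 kb of chr4, measured 6.67 against 1.51 FPKM (log2 2.15). C1R and C1S, the proteases that start the classical pathway, lie within 34.7 kb of chr27 and were higher to a like extent, C1R at 306 against 35.0 FPKM (log2 3.13) and C1S at 286 against 36.0 FPKM (log2 2.99). C3, the protein on which all pathways converge, stood at 3.07 against 0.266 FPKM (log2 3.53). SERPING1, the inhibitor of both proteases, measured 21.9 against 6.57 FPKM (log2 1.73). PLAU, the urokinase that activates plasminogen, was at 387 against 90.8 FPKM (log2 2.09). CLU, an extracellular chaperone, was the most abundant member at 552 against 346 FPKM (log2 0.67).

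**Figure D4:**
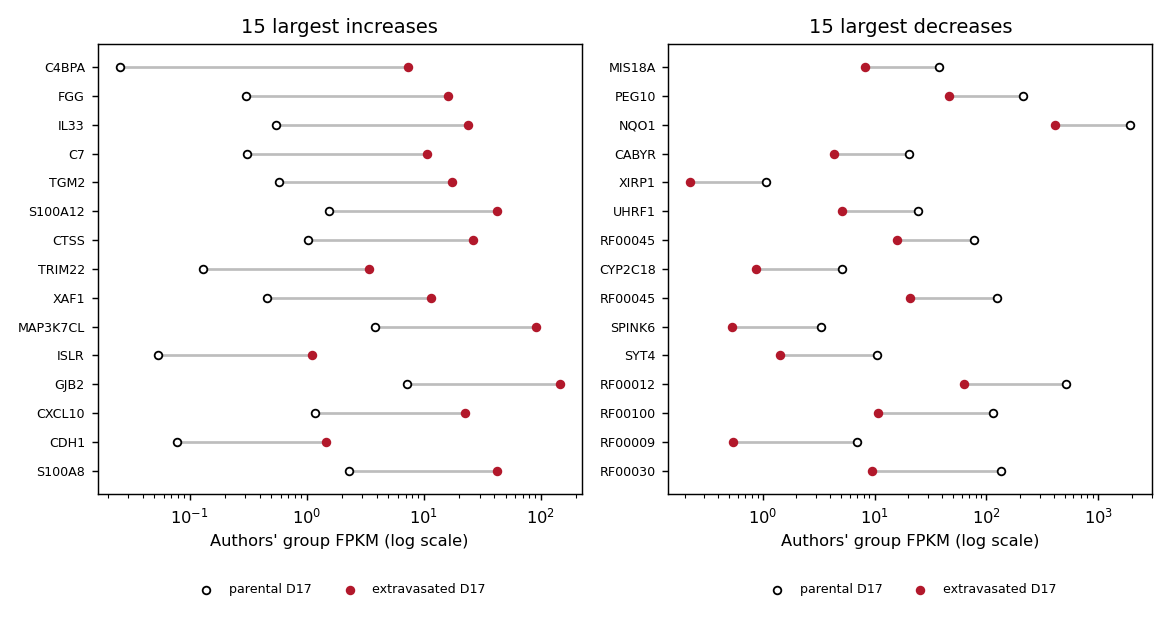
Group FPKM (log scale) in parental (open) and extravasated D17 cells (red) for the 15 genes with the largest increase and the 15 with the largest decrease in ratio among those with at least 1 FPKM in the higher group. The 15 increases start from parental values of 7.20 FPKM or less, whereas the decreases include genes that were abundant in parental cells such as NQO1 and the structured RNA U3 (RF00012).

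Listed extracellular matrix genes were mostly higher in extravasated cells. Over 5 lists (collagens, proteases, proteoglycans, matricellular proteins, and integrins and laminins) 104 genes were listed, 97 higher and 7 lower. In that order 71, 63, 61, 63 and 47 genes were searched, and the level of those not listed is unknown. The share of higher genes was 93.3%, against 54.2% of all listed genes. At 2-fold 43 were higher and 4 lower, 41.3% and 3.85% against 18.2% and 8.45% of all listed genes. These directions hold under the reading of the group names given above. Relative to the median, 94 were higher and 10 lower. The median log2 ratio of the 104 genes was 0.83.

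Of 22 listed collagens and collagen-processing enzymes, 21 were higher, 10 at least 2-fold, with a median log2 ratio of 0.80, and 20 were higher relative to the median. COL1A2, a chain of the type I collagen of bone (chr14:19883732-19920718), was the most abundant at 1359.7 against 493 FPKM (log2 1.46), and COL1A1, the other chain, stood at 397 against 224 FPKM (log2 0.82). COL11A1, a chain of the fibril-nucleating type XI collagen, measured 223 against 88.8 FPKM (log2 1.33). COL8A1 and COL21A1 were expressed at lower levels, COL8A1 at 3.44 against 0.996 FPKM (log2 1.79) and COL21A1 at 3.59 against 1.27 FPKM (log2 1.5). PCOLCE, which enhances removal of the procollagen tail, showed the largest ratio of the list at 144 against 24.3 FPKM (log2 2.57). LOXL2, a crosslinking enzyme, was at 84.0 against 54.9 FPKM (log2 0.61). COL3A1, the type III collagen of soft tissues, was the exception at 4.50 against 13 FPKM (log2 -1.53).

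All 24 listed matrix proteases and their inhibitors were higher, 12 at least 2-fold and all 24 relative to the median, with a median log2 ratio of 1.00. CTSK, the collagen-degrading cathepsin best known from osteoclasts (chr17:59929301-59936715), came to 439.7 against 85.6 FPKM (log2 2.36). MMP13, the collagenase of bone and cartilage, stood at 18.1 against 3.80 FPKM (log2 2.25), and its neighbour within 104.3 kb of chr5, MMP3, at 7.39 against 4.49 FPKM (log2 0.72). MMP14, the membrane-bound activator of MMP2, measured 72.5 against 22.3 FPKM (log2 1.70). MMP2 was at 1.15 against 0.372 FPKM (log2 1.63). MMP19 came to 4.19 against 1.05 FPKM (log2 2.00). ADAMTS2, which trims procollagen, stood at 27.0 against 6.70 FPKM (log2 2.01). HTRA1, a secreted serine protease, was the most abundant member at 512 against 192 FPKM (log2 1.41). Inhibitors were higher alongside the enzymes, with TIMP1 at 352 against 184 FPKM (log2 0.94) and TIMP2 at 29.0 against 10.9 FPKM (log2 1.41).

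**Figure D5:**
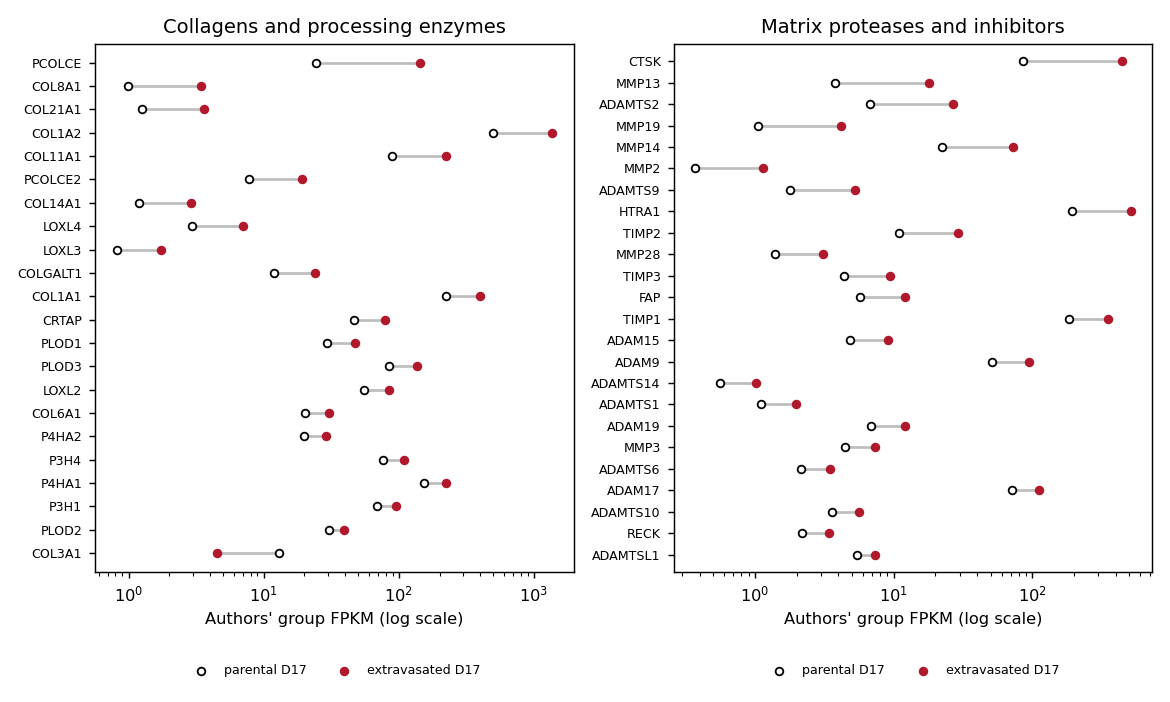
Group FPKM (log scale) in parental (open) and extravasated D17 cells (red) for the 22 listed collagen genes and processing enzymes (left) and the 24 listed matrix proteases and inhibitors (right), ordered by ratio. All are higher in extravasated cells except COL3A1, and COL1A2 and HTRA1 have the highest extravasated level in their panels.

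Proteoglycan and hyaluronan genes were less uniform, with 18 of 22 higher and 4 lower, or 17 and 5 relative to the median. PODN, a small leucine-rich proteoglycan, measured 17.4 against 1.84 FPKM (log2 3.23). DCN, or decorin, which binds collagen fibrils, was the most abundant at 544 against 157 FPKM (log2 1.79). LUM, or lumican, was at 157 against 47.6 FPKM (log2 1.72). FMOD, or fibromodulin, came to 2.27 against 0.507 FPKM (log2 2.16). SRGN, the proteoglycan of secretory granules, stood at 19.5 against 3.93 FPKM (log2 2.31). HAS2, a hyaluronan synthase, measured 0.595 against 1.76 FPKM (log2 -1.57). CD44, the main hyaluronan receptor, was at 45.8 against 80.4 FPKM (log2 -0.81). VCAN, which encodes versican, a large chondroitin sulfate proteoglycan that binds hyaluronan (ENSCAFG00000008582, chr3:24127133-24239146), came to 17 against 23.2 FPKM (log2 -0.44), and after centring its log2 ratio was -0.83, a sign that rests on the reading of norm as parental. SPOCK1, or testican, was the fourth lower gene at 0.361 against 0.983 FPKM (log2 -1.45).

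Of 19 listed matricellular and elastic fibre genes, 18 were higher, 8 at least 2-fold, and 18 were higher relative to the median. SPP1, or osteopontin, stood at 25.2 against 3.71 FPKM (log2 2.76). SPARC, or osteonectin, was at 433 against 187 FPKM (log2 1.21). TNC, or tenascin C, measured 1.01 against 0.249 FPKM (log2 2.02). ABI3BP was at 27.6 against 5.73 FPKM (log2 2.27). SMOC1, an antagonist of bone morphogenetic proteins, came to 7.54 against 2.25 FPKM (log2 1.75). MFAP5, a microfibril protein, was the exception at 0.712 against 2.20 FPKM (log2 -1.63). Of 17 listed integrin, laminin and basement membrane genes, 16 were higher, 5 at least 2-fold, and 15 were higher relative to the median. ITGA5, the fibronectin receptor chain, stood at 24.2 against 10.5 FPKM (log2 1.20), while its partner ITGB1, the most abundant integrin listed, differed little at 236 against 187 FPKM (log2 0.33) and lay below the median of all genes after centring. ITGA10, a collagen receptor chain, measured 8.36 against 3.35 FPKM (log2 1.32). ITGAE was lower at 1.63 against 2.91 FPKM (log2 -0.84), although its span overlaps another listed gene.

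Cell junction genes were divided, with 18 of 29 higher and 11 lower, or 16 and 13 relative to the median. GJB2, or connexin 26, a gap junction subunit, had the largest ratio at 145 against 7.20 FPKM (log2 4.33). CDH1, the E-cadherin of epithelia, was at 1.47 against 0.0783 FPKM (log2 4.23). CDH2, the N-cadherin of mesenchymal cells, came to 9.13 against 14.2 FPKM (log2 -0.64). EPCAM, an epithelial adhesion molecule, stood at 1.72 against 0.431 FPKM (log2 2.00). The levels of CDH1 and EPCAM stayed below 2 FPKM in both groups. TGM2, a transglutaminase that crosslinks matrix proteins, was among the 15 largest increases with at least 1 FPKM in the higher group at 17.5 against 0.577 FPKM (log2 4.92).

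Of 47 osteoblast genes searched 13 were listed. These leaned higher, with 11 of 13 above parental levels, also relative to the median, and 6 at least 2-fold. Of the higher ones, COL1A1, COL1A2, SPARC, MMP13 and SPP1 are also counted in the matrix lists above. PHEX, an endopeptidase of mineralizing cells, measured 0.494 against 0.160 FPKM (log2 1.62). CRTAC1, a secreted protein of cartilage, was at 1.5 against 0.364 FPKM (log2 2.04). SLC20A1, a phosphate importer, was lower at 141 against 216 FPKM (log2 -0.62). SOX9, the master regulator of cartilage, came to 2.16 against 1.24 FPKM (log2 0.80).

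Markers of cell types were looked up among the listed genes. Since only genes marked as significant are listed, the number of listed markers cannot show which cell types are present. Of 20 markers of mesenchymal stromal and osteogenic cells 9 were listed, and their summed FPKM was 2477 in extravasated and 1092 in parental cells, nearly all of it from COL1A2, SPARC, COL1A1 and FN1. Of these, 7 were higher, among them THY1, a stromal surface marker, at 1.98 against 0.440 FPKM (log2 2.17). Few markers of other cell types were listed, most of them at low levels, and none of those listed was at 0 in either group. Leukocyte markers had 1 of 23 listed, LCP1, or L-plastin, which many tumor cells also express, at 33.2 against 12 FPKM (log2 1.47). PTPRC, the defining leukocyte marker, is not listed, like the other markers of that list, and its level is unknown. Endothelial markers had 2 of 15 listed, FLT1 at 2.80 against 1.95 FPKM (log2 0.53) and ERG at 10.4 against 6.13 FPKM (log2 0.76). Epithelial markers had 6 of 27 listed, with a summed FPKM of 16.0 in extravasated and 14.5 in parental cells. Of these, 5 were higher, 4 at least 2-fold, including CDH1 and EPCAM above, SPINT1, an inhibitor of membrane serine proteases, at 1.61 against 0.445 FPKM (log2 1.86), and GRHL3, an epithelial transcription factor, at 1.11 against 0.318 FPKM (log2 1.80). GRHL1, its relative, was lower at 4.92 against 9.59 FPKM (log2 -0.96). The 4 epithelial markers at least 2-fold higher stood below 2 FPKM in both groups. Of all listed genes, 72.9% were at least 2-fold higher at a mean below 1 FPKM, and 24.1% from 1 to 10 FPKM. Adipocyte markers had 2 of 10 and skeletal muscle markers 1 of 19, with sums between 0.312 and 1.46 FPKM. The part of any other cell type in the differences above was not tested.

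Signalling pathways differed in both directions. Of 73 Wnt genes searched 15 were listed, 13 of them higher, also relative to the median, and 6 reached 2-fold. SFRP2, which encodes a secreted Wnt modulator, was the most abundant listed member at 1901 against 469 FPKM (log2 2.02). AXIN2, a feedback target of beta-catenin, stood at 1.90 against 0.490 FPKM (log2 1.96), and the ligands WNT5B and WNT3 measured 5.14 against 2.17 FPKM (log2 1.25) and 1.43 against 0.583 FPKM (log2 1.29) respectively. FZD5, a receptor, and TCF7L2, a transcription factor of the pathway, were lower, at 5.38 against 8.15 FPKM (log2 -0.60) and 2.52 against 3.63 FPKM (log2 -0.53) respectively. In the TGF-beta and BMP list, 9 of 14 were higher, also relative to the median. The receptors TGFBR3 and TGFBR2 were at 23.2 against 7.72 FPKM (log2 1.59) and 28.4 against 10.9 FPKM (log2 1.38) respectively, whereas ID3, a direct target of BMP signalling, was lower at 44.8 against 137 FPKM (log2 -1.61), and so were the inhibitory SMAD6 and SMAD7, at 11.1 against 16.4 FPKM (log2 -0.56) and 4.84 against 7.04 FPKM (log2 -0.54) respectively.

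Growth factors and receptor tyrosine kinases had 24 of 35 listed genes higher, 13 at least 2-fold, and 11 lower, 5 at least 2-fold, and relative to the median the counts were 22 and 13. GAS6, the ligand of AXL, came to 3.78 against 0.503 FPKM (log2 2.91). NRP2 and NRP1, both co-receptors of semaphorins and vascular growth factors, parted, NRP2 standing at 82.1 against 21.6 FPKM (log2 1.93) and NRP1 at 72.4 against 131 FPKM (log2 -0.85). PDGFRL stood at 113 against 28.5 FPKM (log2 1.99). IGFBP4, which binds insulin-like growth factors, measured 73.1 against 20.3 FPKM (log2 1.85). EREG, a ligand of the epidermal growth factor receptor, was lower at 0.399 against 1.73 FPKM (log2 -2.11), as was EFNB2, a membrane-bound ephrin, at 0.274 against 1.17 FPKM (log2 -2.09). In the list of ERK feedback and immediate-early genes, 17 of 21 were higher, 11 at least 2-fold, and 17 relative to the median. The feedback inhibitors DUSP2 and SPRY1 were at 1.95 against 0.354 FPKM (log2 2.46) and 39.0 against 11.4 FPKM (log2 1.78) respectively. EGR1, a classic immediate-early gene, came to 18.2 against 6.73 FPKM (log2 1.44). FOSL2, an AP-1 subunit, stood at 120.2 against 48.6 FPKM (log2 1.31). FOSL1, a subunit of the same complex, was lower at 7.82 against 25.4 FPKM (log2 -1.70).

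Contractile and YAP target genes did not share a direction, since 22 of 33 were higher and 11 lower, which became 17 and 16 relative to the median. TAGLN, an actin-binding protein of smooth muscle, measured 120.4 against 6.89 FPKM (log2 4.13). ANKRD1, a YAP target, was at 19.6 against 2.73 FPKM (log2 2.84). TPM1, or tropomyosin 1, was the most abundant at 1039 against 600.0 FPKM (log2 0.79). FLNA, a crosslinker of actin filaments, was lower at 106 against 212 FPKM (log2 -1.01), and ACTB, the cytoplasmic actin, came to 409.8 against 542 FPKM (log2 -0.40).

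Listed lysosomal genes were higher almost throughout. Of 85 genes of the lysosome and the vacuolar proton pump searched, 47 were listed. Of these, 45 were higher, 16 at least 2-fold, with a median log2 ratio of 0.83, and 41 remained higher relative to the median. The summed FPKM of the 47 genes was 8754 in extravasated and 4653 in parental cells. All 8 listed cathepsins were higher, 5 at least 2-fold, with a median log2 ratio of 1.47. CTSH, an aminopeptidase, was the most abundant cathepsin at 918 against 235 FPKM (log2 1.97), and CTSB stood at 249.9 against 90.5 FPKM (log2 1.47). PSAP, the precursor of the saposins that help degrade sphingolipids, measured 882 against 325 FPKM (log2 1.44). GM2A, the activator of ganglioside breakdown, was at 12.6 against 3.50 FPKM (log2 1.85). The 7 listed subunits of the proton pump were all higher, none 2-fold, with a median log2 ratio of 0.54. TFEB, a transcription factor of lysosomal genes, differed less at 8.39 against 6.14 FPKM (log2 0.45). The 2 lower genes were NEU1 and TMEM192. NEU1, a sialidase, was at 30.3 against 42.7 FPKM (log2 -0.49). TMEM192, a lysosomal membrane protein, stood at 10.3 against 14.6 FPKM (log2 -0.50).

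Cholesterol and fatty acid genes were mostly higher, with 19 of 24 above parental levels and 18 relative to the median. NPC2, which hands cholesterol out of the lysosome, was the most abundant at 849 against 220.3 FPKM (log2 1.95), and INSIG1, a sterol-regulated brake on synthesis, measured 150.1 against 60.7 FPKM (log2 1.31). TM7SF2, a sterol reductase, was at 28.5 against 11.7 FPKM (log2 1.29). ELOVL6, a fatty acid elongase, was lower at 18.9 against 39.8 FPKM (log2 -1.08).

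The glycolysis and hypoxia list had 20 of 28 genes higher, 7 at least 2-fold, and 19 relative to the median. CA9, a carbonic anhydrase induced by hypoxia, came to 8.65 against 0.674 FPKM (log2 3.68). ALDOC, an aldolase, stood at 72.8 against 20.5 FPKM (log2 1.83). BNIP3, a hypoxia-induced mitophagy receptor, measured 73.0 against 28.8 FPKM (log2 1.34). DDIT4, a stress-induced inhibitor of mTORC1 counted in the ATF4 list, was at 41.8 against 4.03 FPKM (log2 3.37). By contrast GAPDH, the most abundant listed gene of parental cells, was lower at 7061 against 10194 FPKM (log2 -0.53), as were ENO1 at 531 against 669.8 FPKM (log2 -0.34) and the glucose transporter gene SLC2A1 at 12.6 against 20.7 FPKM (log2 -0.71). Summed over the list, FPKM was lower in extravasated than in parental cells, 8593 against 11618 with a ratio of 0.740, although most genes were higher. GAPDH alone held most of both sums, and its loss in FPKM was larger than that of the whole list.

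Antioxidant genes were evenly divided, with 8 higher and 8 lower, or 6 and 10 relative to the median. Among targets of the transcription factor NRF2, NQO1, a quinone reductase (chr5:79985473-79989648), was lower at 413 against 1943 FPKM (log2 -2.23), a loss of FPKM second only to that of GAPDH. TXNRD1, the thioredoxin reductase, measured 173 against 362 FPKM (log2 -1.07). SRXN1, or sulfiredoxin, was at 40.5 against 75.9 FPKM (log2 -0.91). Both subunits of glutamate-cysteine ligase were lower as well, GCLC at 20.4 against 28.7 FPKM (log2 -0.50) and GCLM at 58.4 against 76.0 FPKM (log2 -0.38). HMOX1, a heme oxygenase that NRF2 also regulates, ran the other way at 22.8 against 13.4 FPKM (log2 0.77). MT2A, a metallothionein that binds zinc and copper (chr2:59607925-59608825), stood at 1109 against 127 FPKM (log2 3.13), the largest ratio of any gene above 1000 FPKM in a group. FTL, the ferritin light chain, measured 5929 against 3706 FPKM (log2 0.68). MGST1, a membrane glutathione transferase, was at 8.74 against 1.24 FPKM (log2 2.81).

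Ribosomal protein genes were higher by small amounts at very high levels. Of 33 listed genes for cytosolic ribosomal proteins, 31 were higher, none 2-fold, with a median log2 ratio of 0.43, close to the median of all genes, so that only 20 of 33 stayed higher after centring. Their summed FPKM was 122665 in extravasated and 92413 in parental cells, of totals of 360592 and 323945 over all listed genes. RPS21 had the highest value of extravasated cells at 9097 against 5841 FPKM (log2 0.64). RPS2 and RPL22L1 were lower, RPS2 at 2995 against 4428 FPKM (log2 -0.56) and RPL22L1 at 157 against 202 FPKM (log2 -0.37). Ribosomal protein genes have many processed pseudogenes, to which some fragments could have been assigned.

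Other parts of the protein synthesis machinery were lower. Of 16 listed mitochondrial ribosomal protein genes 15 were lower, with a median log2 ratio of -0.48, and all 16 were lower relative to the median. MRPS6 came to 64.1 against 143 FPKM (log2 -1.16). MRPS18B, the exception, stood at 167 against 133 FPKM (log2 0.33). Translation factors had 18 of 22 lower, or 19 relative to the median, among them EIF5, which helps select the start codon, at 180.0 against 444 FPKM (log2 -1.30). GSPT1, a release factor, measured 191 against 382 FPKM (log2 -1.0). EIF4B, an exception, was at 947 against 671 FPKM (log2 0.50). Of 11 aminoacyl-tRNA synthetases 9 were lower, also relative to the median and none 2-fold, and of the others WARS, the interferon-inducible tryptophanyl-tRNA synthetase, came to 178 against 129 FPKM (log2 0.46). Of 13 respiratory chain genes 9 were higher and 4 lower, none 2-fold, a majority that turned to 5 higher and 8 lower relative to the median.

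Splicing factors and RNA-binding proteins were mostly lower. Of 89 listed genes 72 were lower, 5 at least 2-fold, with a median log2 ratio of -0.50, and 75 were lower relative to the median. RBM3, a cold-induced RNA-binding protein, stood at 466 against 1061 FPKM (log2 -1.19). Of the 6 genes at least 2-fold higher in this list, the helicases DHX58, DDX58 and DDX60 take part in antiviral defence, and DDX60 measured 54.9 against 20.8 FPKM (log2 1.40). Heat-shock proteins and chaperonins had a lower majority too, with 16 of 21 lower and only 5 higher, and the same counts relative to the median. FKBP4, a cochaperone of steroid receptors, was at 239.8 against 674 FPKM (log2 -1.49), and all 6 listed subunits of the chaperonin TRiC were lower, with a median log2 ratio of -0.45, including CCT2 at 1513 against 2231 FPKM (log2 -0.56). CRYAB, a small heat-shock protein, ran the other way at 6.79 against 3.22 FPKM (log2 1.08). In the endoplasmic reticulum the unfolded protein response list had 15 of 20 genes higher, 11 relative to the median, with HERPUD1 at 40.8 against 17.2 FPKM (log2 1.24) and PDIA5 at 34.1 against 13.8 FPKM (log2 1.31).

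The largest decreases of the table were those of structured noncoding RNAs, which the annotation names by Rfam family. Of 8 such rows 7 had a value above 0 in both groups, and all 7 were at least 2-fold lower, with a median log2 ratio of -3.02. RF00030, the RNA of RNase MRP, came to 9.50 against 136 FPKM (log2 -3.84). RF00009, the RNA of RNase P, stood at 0.547 against 6.94 FPKM (log2 -3.67). RF00100, the 7SK RNA that restrains transcription elongation, measured 10.8 against 114 FPKM (log2 -3.40). RF00012, the small nucleolar RNA U3, was the most abundant at 63.3 against 513 FPKM (log2 -3.02). The small nucleolar RNA family SNORA73 (RF00045) was present in 2 rows, one at 20.9 against 123 FPKM, log2 -2.56, and the other at 15.8 against 77.2 FPKM, log2 -2.29. The spliceosomal RNA U1 (RF00003) was listed at 0 in extravasated cells and at 4.46 FPKM in parental cells. Such RNAs generally lack a poly(A) tail, the labels describe a selection for poly(A), and the part of that selection in these differences was not tested.

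Among protein-coding genes, the largest decrease by ratio was that of SYT4, a synaptotagmin of secretory vesicles (chr7:47555067-47565365), at 1.42 against 10.5 FPKM (log2 -2.89). SPINK6, a secreted protease inhibitor, was at 0.531 against 3.34 FPKM (log2 -2.65). CYP2C18, a cytochrome P450, came to 0.871 against 5.08 FPKM (log2 -2.54). PEG10, an imprinted gene derived from a retrotransposon, was far more abundant at 46.2 against 214 FPKM (log2 -2.21), and CABYR stood at 4.30 against 20.3 FPKM (log2 -2.24). By FPKM itself, TUBA1B, an alpha-tubulin, was among the 10 largest losses at 1552 against 2601 FPKM (log2 -0.75), together with SLC29A1, the nucleoside transporter ENT1, at 1054 against 1750.0 FPKM (log2 -0.73). PRDX1, a peroxiredoxin, was at 2015 against 2929.7 FPKM (log2 -0.54). PTMA, or prothymosin alpha, measured 652 against 1173 FPKM (log2 -0.85). Among the remaining increases, MAP3K7CL was at 91.2 against 3.86 FPKM (log2 4.56). ISLR, a mesenchymal marker, came to 1.11 against 0.0536 FPKM (log2 4.37). YPEL4 was listed at 0 in parental cells and at 2.63 FPKM in extravasated cells, and HESX1, a homeobox gene, was listed at 0 in extravasated cells and at 1.77 FPKM in parental cells, so neither has a ratio.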

How the data were processed

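Poly(A)-selected RNA of 3 extravasated and 3 parental D17 samples was sequenced. The labels name an RNeasy and a NEBNext Ultra Directional kit, and the article a miRNeasy and a TruSeq Stranded kit. The submitters' processing notes name Trimmomatic 0.38, TopHat2, Cufflinks and Cuffdiff with CanFam3.1, and the article STAR, voom and limma. The table has the columns of Cuffdiff. The FPKM of each group was deposited by the authors as 1 value for its 3 libraries, and all 4412 rows carry their mark of significance. Log2 ratios, test statistics, p-values and q-values that the authors deposited were not used. Columns of per-sample values that were not used numbered 0. Depth per library is not known from these values, so no interval or detection floor is given.

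Log2 ratios were computed from both FPKM values with Python 3.11.15, numpy 2.4.6 and pandas 2.3.3, and drawn with matplotlib 3.10.9. The calculation was tested on simulated data. Members of 48 gene lists were matched by symbol, and the members and lists were chosen with earlier results of these data known. Of 5 symbols stored as dates, as spreadsheets do, 3 were recovered through their Ensembl identifier in another table. Coordinates are those of the table, which does not state whether starts count from 0. By rule, named genes were the 15 largest ratios in each direction with at least 1 FPKM in the higher group, the 10 largest differences in FPKM in each direction, the 10 highest levels, and in each list the 4 largest ratios at 1 FPKM or more, the most abundant member and the exceptions where fewer than 5 ran against the rest. Genes at 0 in 1 group with at least 1 FPKM in the other, and VCAN, were added. Alternatives were folds of 1.5 and 4, pseudocounts of 0.1 and 1 FPKM, minimum levels, 1 row per symbol, centring on the median ratio and, chosen after seeing the data, scaling to equal totals. A few members of the lists are counted but not reported here by name.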

Additional observations from a re-analysis of the deposited data

How the results depend on the processing

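No paired analysis was possible because each group has 1 pooled value and no value per library, and for the same reason no replicate could be left out. The counts of genes at least 2-fold higher and lower, 803 and 372, depended on the threshold: 1623 and 1094 genes passed at 1.5-fold, and 216 and 24 at 4-fold. The higher count was 453 with a pseudocount of 1 FPKM and 507 with at least 1 FPKM in both groups, and the lower count stayed within 1.5 times of its value. Centring on the median ratio gave 471 higher and 1013 lower, since it subtracts 0.39 from every log2 ratio. Centring moved the median log2 ratio of the collagen list to 0.41, of the matrix proteases to 0.62, of the lysosome to 0.45, of the mitochondrial ribosome to -0.86, of the splicing factors to -0.88 and of the ribosomal proteins to 0.0402, and scaling to equal totals, chosen after seeing the data, moved the last to 0.27. The share of genes that were higher moved on centring to 60.6% for ribosomal proteins and 0% for the mitochondrial ribosome, and turned to 38.5% for the respiratory chain. Centring also turned the sign of 10 of the 257 named genes with a ratio, namely CCNG1 (-0.0614), COX5B (-0.0188), EIF2A (-0.0754), ITGB1 (-0.0523), MRPS18B (-0.0547), PSME2 (-0.0706), RPL17 (-0.0170), RPS24 (-0.0245), SEC61G (-0.10) and SNRPD2 (-0.0771). Another 68 of them moved by more than 1.5 times on centring, 16 under equal totals and 56 with a pseudocount of 1 FPKM, which took C4BPA to 3.02, FGG to 3.71 and CDH1 to 1.19. A pseudocount of 0.1 FPKM, at least 1 FPKM in the higher group, 1 row per symbol and equal totals kept both counts within 1.5 times. Under equal totals each list kept its number of higher genes, which was fixed in advance. That scaling subtracts 0.15 from every log2 ratio, and the smallest positive ratio was 0.284, so no sign could change. The complement and matrix protease lists stayed wholly higher under centring. Centring and equal totals both lower every ratio, so the replication and mitosis lists could not leave the lower side. With no values per library, depth and spread set limits that remain unknown, above all for genes below 1 FPKM.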

Other observations

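Genes known from neurons were listed in D17 cells in both directions, with 14 of 21 higher, 8 at least 2-fold, and 7 lower, 2 at least 2-fold, with the same directions relative to the median. CNTN1, a neuronal adhesion molecule, stood at 4.39 against 0.565 FPKM (log2 2.96). SNAP25, a component of synaptic vesicle fusion, measured 2.06 against 0.362 FPKM (log2 2.51). GAP43, a growth cone protein, had the highest extravasated level of the list at 141 against 32.5 FPKM (log2 2.11). SYT4, a partner of the same fusion machinery, ran against them as the largest decrease of any protein-coding gene. In axon guidance 11 of 13 listed genes were higher, also relative to the median, among them PLXNA2, a semaphorin receptor, at 1.29 against 0.104 FPKM (log2 3.63). SLIT3, a ligand of ROBO receptors, was at 23.1 against 5.84 FPKM (log2 1.98). FLRT2 and FLRT3, related adhesion molecules that bind UNC5 and latrophilin receptors, parted, FLRT2 standing at 2.08 against 4.99 FPKM (log2 -1.26) and FLRT3 at 41.9 against 13.4 FPKM (log2 1.65).

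Solute carriers were close to evenly divided, with 45 of 85 higher and 40 lower, or 52.9% higher against 54.2% of all listed genes. At 2-fold 19 were higher and 4 lower, 22.4% and 4.71% of the list against 18.2% and 8.45% of all listed genes. Relative to the median 42 were higher and 43 lower. The glutamate transporters SLC1A3 and SLC1A7 came to 12.7 against 2.85 FPKM (log2 2.16) and 3.48 against 0.437 FPKM (log2 3.00) respectively, and SLC6A9, a glycine transporter, was at 2.58 against 0.743 FPKM (log2 1.79). Of 23 listed genes of ATF4 and amino acid supply 13 were higher and 10 lower, also relative to the median, with NUPR1, a stress-induced nuclear protein, at 8.65 against 2.93 FPKM (log2 1.56). CTH, the last enzyme of cysteine synthesis, stood at 16.0 against 43.6 FPKM (log2 -1.45). ZNF-named zinc finger genes had 38 of 62 higher and 24 lower, also after centring, and all 38 higher ones had a log2 ratio above the median of all genes. ZNF706 was the most abundant at 733 against 560.5 FPKM (log2 0.39), and ZNF215 showed the lowest ratio at 1.55 against 4.78 FPKM (log2 -1.63).

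The share of listed genes that were higher differed between chromosomes. It was lowest on chr36 (34.3% of 35 genes), chr13 (40.5% of 74) and chr37 (42.9% of 56), and highest on chr23 (69.6% of 79), chr14 (64.1% of 78) and chr17 (63.1% of 149). No test of these shares was made, and neighbouring genes are not independent of each other.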
